A study of Mus musculus with 18 samples.

Results

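The 10 phospholipase C genes Plcb1, Plcb2, Plcb3, Plcb4, Plcg1, Plcg2, Plcd1, Plcd3, Plcd4 and Plce1 were followed in RNA-Seq libraries of the ventral dentate gyrus of male mice. They were taken by gene symbol from the 34620 genes in the deposited count tables. All 10 passed the filter on low counts, which 17421 genes passed. WT libraries came from control offspring of a separate, parallel wild-type line, with wild-type mothers and grandmothers. F1 libraries came from sons whose mothers carried 1 knockout allele of the serotonin 1A receptor (5HT1A-/+), from crosses in which the fathers were heterozygous too and the grandmothers are labelled 5HT1A-/+. F2 libraries came from sons of wild-type F1 females mated with wild-type males, so the mother was wild type and the grandmother 5HT1A-/+. All animals sampled, F1 and F2 included, were wild type at the receptor gene, on the outbred Swiss Webster strain, to which a knockout made in 129SvEv had been backcrossed, adults at least 8 weeks old and drawn from at least 3 litters. F1 and F2 descend from another breeding line than WT, so line and maternal genotype cannot be told apart. Each group had 2 libraries, and the labels do not say how many animals entered each, so p-values measure only the spread between these libraries, which may be technical.

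Phospholipase C enzymes cut the membrane lipid phosphatidylinositol bisphosphate into inositol trisphosphate (IP3), which opens calcium channels of the endoplasmic reticulum, and diacylglycerol, which activates protein kinase C and other proteins with a C1 domain. The families differ in what switches them on: beta isoforms answer to Gq-coupled receptors, gamma isoforms to receptor and non-receptor tyrosine kinases, and delta isoforms mainly to calcium. Plcb1 is known as the main beta isoform of the hippocampus, acting below muscarinic and metabotropic glutamate receptors, Plcb4 as that of thalamus and parts of the cerebellum, and Plcg2 and Plcb2 as isoforms of blood-lineage cells.

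The libraries held 26358165 to 33727936 counts on genes. The granule cell markers Prox1 and Calb1 were at 228 CPM or more in every library, where CPM is the read count scaled to a common library size with TMM factors, and none of the 12 granule cell markers fell under 13.9 CPM. Their summed CPM was 1613 to 1633 in WT, 1373 to 1722 in F1 and 1855 to 2097 in F2. In each of F1 and F2, 1 was called lower and 0 higher, where 8.54% and 8.1% of all tested genes were called lower. WT libraries had the larger share of reads in no annotated feature, at 12.6% and 14.2%, against 9.18% to 9.84% in F1 and 10.2% to 11.6% in F2. Alignments that were not unique made up 29.0% and 31.4% in WT, 28.6% and 25.1% in F1, and 26.5% and 33.2% in F2. Markers of other cells differed with the groups as well. The summed CPM of 12 microglial markers was 165 to 168 in WT, 204 to 240 in F1 and 235 to 269 in F2, with 2 markers called higher in F1 and 7 in F2, where 3.77% and 3.86% of all tested genes were called higher. That of 14 oligodendrocyte markers ranged from 1162 to 2103, 2380 to 3164 and 1642 to 3080, with 5 and 2 called higher. For 11 astrocyte markers the ranges were 2617 to 2842, 3182 to 3832 and 3621 to 4290, with 1 and 7 called higher. None of these markers was at 0 in any library, and their part in the results below was not tested. In such tissue RNA, fewer cells of a type and less RNA per cell cannot be told apart.

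Per kilobase of exon, Plcb1 was the most abundant of the 10 transcripts, with 31.0 CPM per kb averaged over the 6 libraries, and Plcg1 followed with 10.4 CPM per kb. Plcb3 (3.94 CPM per kb), Plcd1 (3.48 CPM per kb), Plcb4 (2.68 CPM per kb), Plcg2 (2.54 CPM per kb), Plcd3 (2.16 CPM per kb), Plcd4 (1.73 CPM per kb) and Plce1 (1.48 CPM per kb) formed a middle group in which each gene's range over libraries overlapped that of the next. Plcb2 was lowest with 0.217 CPM per kb. The ranges of Plcb1 and Plcg1, of Plcg1 and Plcb3, and of Plce1 and Plcb2 did not overlap, so only these steps in the order exceeded the spread between libraries. Plcd4 is an uncertain entry in this order: 38.8% of its exonic bases lie in exons of Zfp142 on the other strand. The library kit does not mark strand. Each length is the union of exons over all annotated transcripts, 1 each for Plcb3, Plcg2 and Plcd1 and 15 for Plcb4. Which transcripts were expressed was not tested, so the order within the middle group depends on these lengths too.

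**Figure D1:**
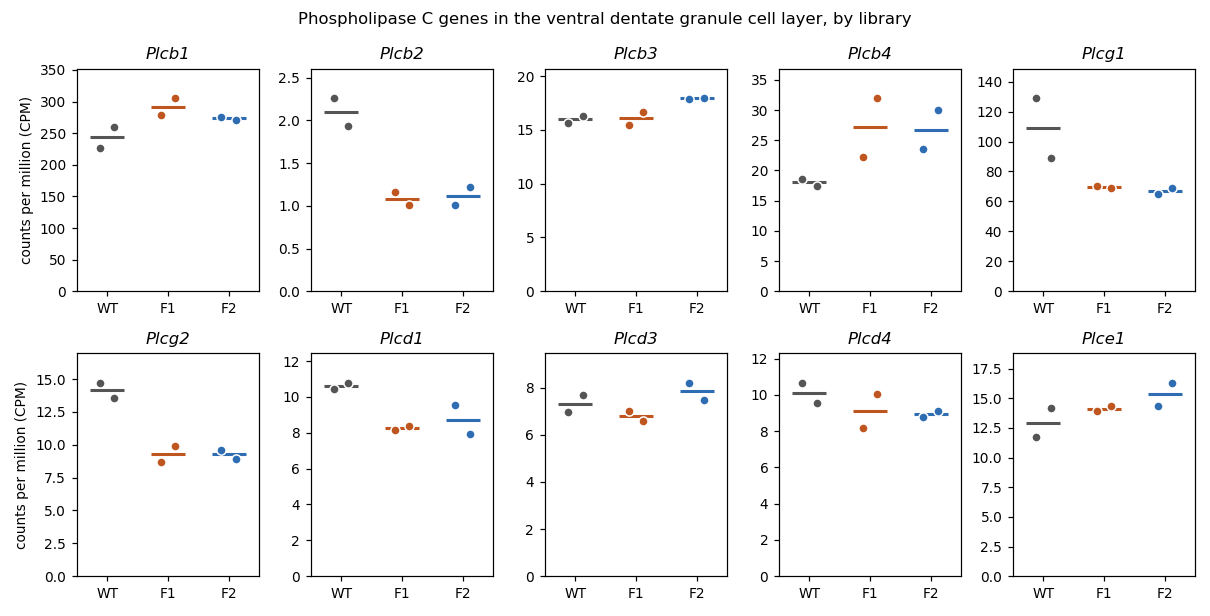
Level of each phospholipase C gene in CPM (vertical axis, from 0, a separate scale for each gene) in WT, F1 and F2; points are the 2 libraries of a group and lines their means. Plcg1, Plcg2, Plcb2 and Plcd1 lie higher in both WT libraries than in the other 4, and Plcb1 and Plcb4 lie lower. Over all tested genes, libraries did not overlap for 60.4% between WT and F1 and 63% between WT and F2.

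The gamma isoforms were the members that passed the test. Plcg1, which couples growth factor and neurotrophin receptors to IP3, and Plcg2, its relative best known from B cells, mast cells and microglia, both fell in F1 and in F2. Plcg1 lies at chr2:160557036-160601496 on the plus strand of mm9 and Plcg2 at chr8:120022191-120159040, also on the plus strand. Because these are the members that passed, in both comparisons, their promoters are shown, 300 bases each from RefSeq's table of gene starts, placed on mm9 by a single exact match at chr2:160556796-160557095 and chr8:120021925-120022224. Capitals mark the letters GGGCGG of a GC box on either strand and CACGTG:
Plcg1 promoter: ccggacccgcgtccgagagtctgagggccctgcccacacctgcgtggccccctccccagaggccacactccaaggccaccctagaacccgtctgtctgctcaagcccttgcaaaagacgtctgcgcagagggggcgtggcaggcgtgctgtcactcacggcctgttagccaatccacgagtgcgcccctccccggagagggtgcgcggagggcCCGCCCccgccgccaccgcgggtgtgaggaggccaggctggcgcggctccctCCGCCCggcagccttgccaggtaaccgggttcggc
Plcg2 promoter: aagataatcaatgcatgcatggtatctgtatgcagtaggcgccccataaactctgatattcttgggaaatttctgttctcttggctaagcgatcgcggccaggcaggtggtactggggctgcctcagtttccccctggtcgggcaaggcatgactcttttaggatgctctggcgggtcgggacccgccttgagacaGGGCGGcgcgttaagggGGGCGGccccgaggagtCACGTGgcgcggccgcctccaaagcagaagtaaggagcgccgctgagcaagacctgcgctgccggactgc
The window of Plcg1 held 27 CpG dinucleotides at 72% GC and that of Plcg2 held 21 at 60% GC, where the median of 32851 promoters was 7 CpG. Each held 2 GC boxes, which 35.7% of all promoters of this length contain at least once. CACGTG was found in the Plcg2 window and not in that of Plcg1, and in 7.15% of promoters. CCAAT was found in the Plcg1 window only, and in 37.4% of promoters. Neither window held TGACGTCA or its shorter form TGACG, present in 1.79% and 20.8% of promoters. These matches are letters in a window and say nothing on which factors bind there.

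Plcg1 measured 129 and 89.0 CPM in the WT libraries, 70.3 and 69.0 CPM in F1, and 65.1 and 68.8 CPM in F2. Both WT libraries were above the other 4, and WT replicate 1 was far above WT replicate 2. The mean was 109 ± 28.5 CPM in WT (SD, n = 2), 69.7 ± 0.967 CPM in F1 and 66.9 ± 2.56 CPM in F2. By edgeR's exact test the log2 fold change was -0.65 in F1 (SE 0.15, adjusted p = 0.000506) and -0.71 in F2 (SE 0.16, adjusted p = 0.000138). WT replicate 1 set much of this size: without it the log2 fold changes were -0.35 and -0.41, with adjusted p of 0.0838 and 0.0453, and without WT replicate 2 they were -0.88 and -0.94. The call was lost as well in F1 without F1 replicate 2 (adjusted p = 0.0229) and in F2 without F2 replicate 1 (adjusted p = 0.0299). About 4.09% of the exonic bases of Plcg1 are shared with Zhx3 on the other strand.

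Plcg2 measured 14.7 and 13.6 CPM in WT, 8.68 and 9.94 CPM in F1, and 9.61 and 8.91 CPM in F2. The WT libraries lay close together and apart from the F1 and F2 libraries, which overlapped each other. The log2 fold change was -0.61 in F1 (SE 0.18, adjusted p = 0.00636) and -0.61 in F2 (SE 0.18, adjusted p = 0.00646), that is 0.657 and 0.653 of the WT level. These calls stood near the threshold of 0.01. In F1 the call was lost whichever single library was left out, F2 libraries included, with adjusted p from 0.0147 to 0.106 and log2 fold changes from -0.70 to -0.50. In F2 it was lost without either WT or either F2 library, with adjusted p of 0.117 and 0.0301 without WT replicate 1 and 2 and 0.0759 and 0.129 without F2 replicate 1 and 2. With edgeR's quasi-likelihood test Plcg2 had adjusted p of 0.0192 in both, and Plcg1 had 0.0132 in F1 and 0.00932 in F2. Summed microglial markers were higher in all 4 F1 and F2 libraries than in either WT library, and their part in the Plcg2 values was not tested. Libraries that do not overlap were seen for 60.4% of all tested genes in F1 and 63% in F2.

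**Figure D2:**
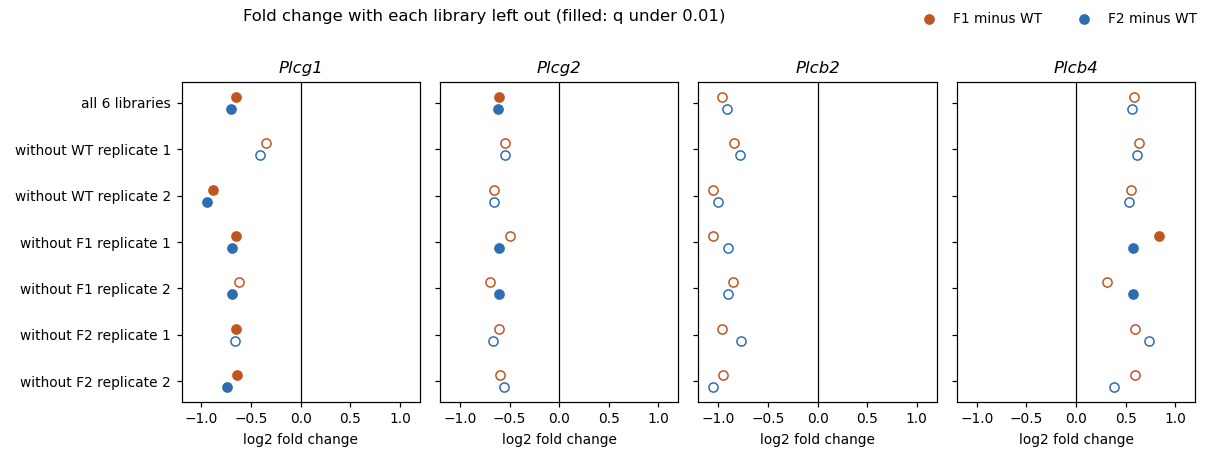
Log2 fold change against WT (horizontal axis) of Plcg1, Plcg2, Plcb2 and Plcb4 with all 6 libraries and with each left out in turn; filled points have q under 0.01 by edgeR's exact test. Plcg1 ranged from -0.94 to -0.35 and lost its call in both comparisons without WT replicate 1, while every point of a gene kept its side of 0.

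Among the beta isoforms, which link Gq-coupled receptors to IP3, no member passed the test in either generation. Plcb1, at chr2:134611895-135300994, measured 227 and 260 CPM in WT, 278 and 306 CPM in F1, and 276 and 270 CPM in F2. Each F1 and F2 library was above both WT libraries, by a log2 fold change of 0.26 ± 0.12 (SE) in F1 (adjusted p = 0.106) and 0.17 ± 0.12 in F2 (adjusted p = 0.352).

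Plcb2, at chr2:118533253-118554174, was represented by only 27 to 77 reads a library. It measured 2.27 and 1.94 CPM in WT, 1.16 and 1.00 CPM in F1, and 1.01 and 1.23 CPM in F2. Both WT libraries were above all others. The log2 fold changes of -0.96 (SE 0.31, adjusted p = 0.0147) and -0.91 (SE 0.31, adjusted p = 0.0238) by edgeR's exact test were the largest in size of the 10 genes but missed the threshold of 0.01.

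Plcb4 at chr2:135484747-135840329 lies downstream of Plcb1 on the same strand. It measured 18.6 and 17.5 CPM in WT, 22.3 and 32.1 CPM in F1, and 23.5 and 30.0 CPM in F2. The WT libraries were the lowest, and the libraries of F1 and of F2 differed among themselves more than those of WT. Log2 fold changes of 0.59 (SE 0.19, adjusted p = 0.0142) in F1 and 0.57 (SE 0.19, adjusted p = 0.0195) in F2 missed the threshold. Without F1 replicate 2 the F1 value was 0.31 (adjusted p = 0.318), and without F1 replicate 1 it was 0.84 (adjusted p = 0.00013). Without F2 replicate 2 the F2 value was 0.39, and without F2 replicate 1 it was 0.74.

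Plcb3, at chr19:7028204-7044279 on the minus strand, varied least. It measured 15.6 and 16.3 CPM in WT, 15.4 and 16.7 CPM in F1, and 17.9 and 18.0 CPM in F2. Its F1 libraries spanned those of WT and its F2 libraries were slightly above both, with log2 fold changes of 0.01 ± 0.15 (adjusted p = 0.994) and 0.17 ± 0.15 (adjusted p = 0.497).

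The calcium-regulated delta isoforms and Plce1, the isoform with Ras-binding domains, showed no call. Plcd1, at chr9:118980645-119002614, measured 10.5 and 10.8 CPM in WT, 8.15 and 8.39 CPM in F1, and 9.57 and 7.91 CPM in F2. Its WT libraries were above the other 4, with log2 fold changes of -0.36 ± 0.19 (adjusted p = 0.163) and -0.28 ± 0.19 (adjusted p = 0.307). Plcd3, at chr11:102931618-102962972, measured 6.97 and 7.67 CPM in WT, 7.03 and 6.57 CPM in F1, and 8.23 and 7.46 CPM in F2. It was the only member whose WT libraries overlapped both other groups, with log2 fold changes of -0.10 ± 0.20 and 0.10 ± 0.20.

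Plcd4, at chr1:74589462-74614368, measured 10.7 and 9.58 CPM in WT, 8.15 and 10.04 CPM in F1, and 8.79 and 9.10 CPM in F2. F1 overlapped WT and F2 lay just below it, with log2 fold changes of -0.16 ± 0.19 and -0.18 ± 0.19. Plce1, at chr19:38598687-38859588, measured 11.7 and 14.2 CPM in WT, 13.9 and 14.4 CPM in F1, and 14.4 and 16.3 CPM in F2. Here too F1 overlapped WT while F2 did not, with log2 fold changes of 0.13 ± 0.17 and 0.25 ± 0.17.

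Counted over the family, 2 of 10 members were called lower and 0 higher in F1, where 12.3% of all tested genes were called (8.54% lower and 3.77% higher). In F2 the counts were again 2 lower and 0 higher, beside 12% of all tested genes (8.1% lower and 3.86% higher). F1 and F2 were compared with the same WT libraries, so their values are given side by side and are not independent of each other. At an unadjusted p under 0.05, 5 members passed in F1 and 4 in F2, beside 32.6% and 32.4% of all tested genes. At an adjusted p under 0.05, the threshold of the study's methods, Plcb2 and Plcb4 passed as well, which makes 4 of 10 members in each comparison, beside 20.8% and 20.7% of all tested genes. The libraries did not overlap for 6 of 10 members in F1, beside 60.4% of all tested genes, and for 9 of 10 in F2, beside 63%. With 2 libraries a group such separation is common. The median log2 fold change of the 10 members was -0.13 in F1 and -0.04 in F2, against 0.0094 and -0.00035 over all tested genes. After offsets for exon GC content and length, an alternative added after seeing the data, 47.7% of called genes were lower in F1 and 51.8% in F2, in place of 69.4% and 67.7%. This setting also replaced the exact test by a likelihood-ratio test, and called 2854 genes in F1 and 2642 in F2 in place of 2144 and 2084. Its median log2 fold change over the genes fitted was 0.081 and 0.062. Under it Plcg1 and Plcg2 stayed past the threshold in both comparisons (log2 fold changes -0.58 and -0.53 in F1, -0.66 and -0.55 in F2). Plcb4 passed in F1 (0.62, adjusted p = 0.00523 by the likelihood-ratio test). The part of the offsets alone in these calls was not tested. The quasi-likelihood test called 0 members in F1 and 1 in F2, with 6 and 4 at an unadjusted p under 0.05, beside 33.3% and 33.2% of all tested genes by that test. Plcb2, Plcb4, Plcg1 and Plcg2 also stand in lists the study drew from these libraries, so their directions here are not independent evidence.

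**Figure D3:**
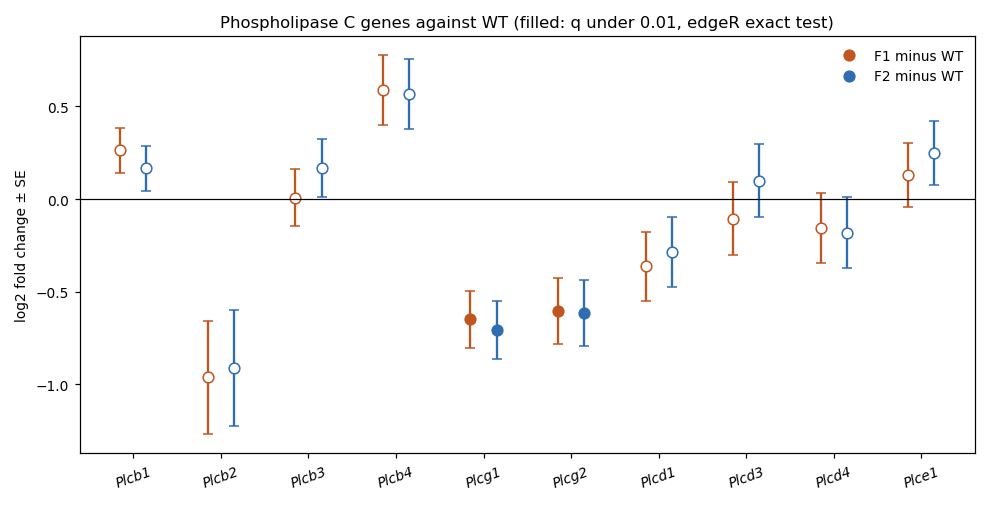
Log2 fold change of each phospholipase C gene in F1 and in F2 against WT (vertical axis; bars are ± 1 SE), with filled points for q under 0.01 by edgeR's exact test. Plcg1 and Plcg2 carry the filled points, at -0.65 and -0.61 in F1 and -0.71 and -0.61 in F2, and Plcb2 lies farther from 0, at -0.96 and -0.91, without passing.

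Between the generations, edgeR's exact test of F2 against F1 called 0 of 10 members, with 0 at an unadjusted p under 0.05 and 0 also by the quasi-likelihood test and DESeq2, beside 0.74% of all tested genes called, 1.32% at an adjusted p under 0.05, which again 0 members passed, and 8.64% at an unadjusted p under 0.05. The differences ran from -0.10 ± 0.12 (SE) for Plcb1 to 0.21 ± 0.20 for Plcd3 on the log2 scale. For Plcg1 the difference was -0.06 ± 0.16 and for Plcg2 it was -0.01 ± 0.18. Differences of this size were not detectable with 2 libraries a group, and their absence is not shown.

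The summed level of the 10 members varied little, from 57.4 to 62.5 CPM per kb over the 6 libraries. Its make-up differed between the WT libraries and the other 4, most in the shares of Plcb1 and Plcg1. Plcb1, which was not called, held 42.6% and 49.8% in WT and 53.4% to 56.4% elsewhere. Plcg1 held 26.8% and 18.9% in WT and 14.1% to 15.6% elsewhere, so the WT libraries also differed from each other. The share of Plcb2, another beta isoform, was lower outside WT. The beta isoforms made up 52.6% and 59.9% of the sum in the WT libraries, 66.8% and 68.7% in F1, and 66.3% and 66.7% in F2. The gamma isoforms made up 32.4% and 24.1% in WT, 19.1% and 17.8% in F1, and 18.0% and 18.6% in F2. Both WT libraries lay outside the range of the other 4 for either subfamily. The ratio of Plcb1 to Plcg1 in CPM per kb was 1.59 and 2.64 in WT and 3.56 to 4.02 in the other 4 libraries. The delta isoforms together held 11.1% to 13.5% and Plce1 held 2.00% to 2.93% over all libraries. The delta share of F1, at 11.6% and 11.1%, lay below that of WT, at 12.997% and 13.5%, and of F2, at 13.1% and 11.8%, and the share of Plce1 in F2, at 2.57% and 2.93%, lay above the other 4 libraries. These shares restate the levels above and were not tested.

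**Figure D4:**
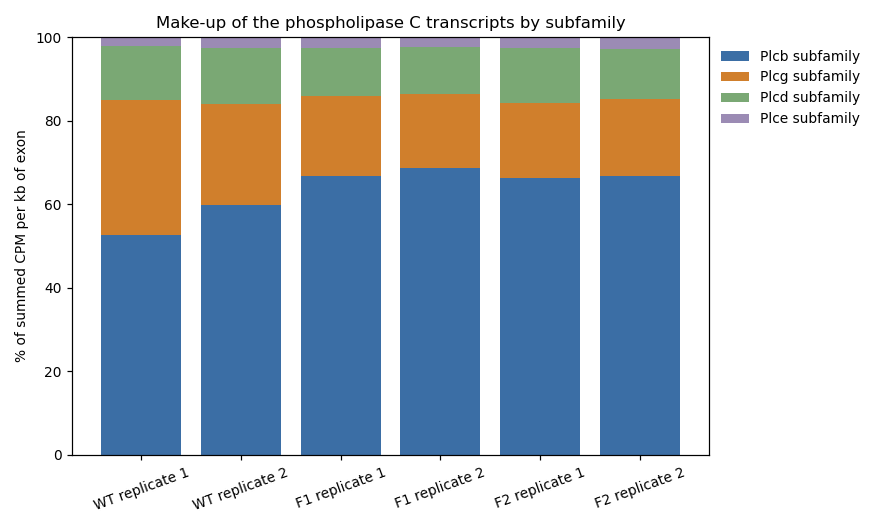
Share of each phospholipase C subfamily in the summed CPM per kb of exon of the 10 genes (vertical axis, in %), 1 bar per library. The gamma share is 24.1% and 32.4% in WT and 17.8% to 19.1% in F1 and F2, and the beta share is 52.6% and 59.9% in WT and 66.3% to 68.7% elsewhere.

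Of 11609 tested genes with a mean of at least 5 CPM, those whose log2 CPM over the 6 libraries followed Plcg1 most closely were Bcat2, Solh and Lass4, with Pearson r of 0.999, 0.997 and 0.997. Bcat2, the mitochondrial branched-chain aminotransferase, measured 24.0 and 16.2 CPM in WT and 12.04 to 12.8 CPM in the other libraries, with WT replicate 1 far above the rest as for Plcg1. The closest to Plcg2 were Sars2, Tsc1 and Cep192, each with r = 0.996. Tsc1, which restrains mTOR signalling, measured 84.7 and 80.1 CPM in WT and 61.2 to 64.1 CPM elsewhere. Among the 11609 genes, 410 had an r above 0.95 with Plcg1 and 298 with Plcg2. All points come from the same 6 libraries, so these values only describe likeness.

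The other genes of the pathway were read from 8 lists with 141 tested genes. In F1, 24 of the 141 were called, 14 higher and 10 lower (17.0%), and in F2 23 were called, 17 higher and 6 lower (16.3%). Of all tested genes 12.3% (3.77% higher and 8.54% lower) were called in F1 and 12% (3.86% higher and 8.1% lower) in F2. Of the calls named below, 8 of 19 in F1 and 8 of 22 in F2 held whichever library was left out, and WT replicate 1 was the library whose removal most often ended one, in 10 and 12 of them. By the quasi-likelihood test 13 of the 19 and 16 of the 22 passed.

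**Figure D5:**
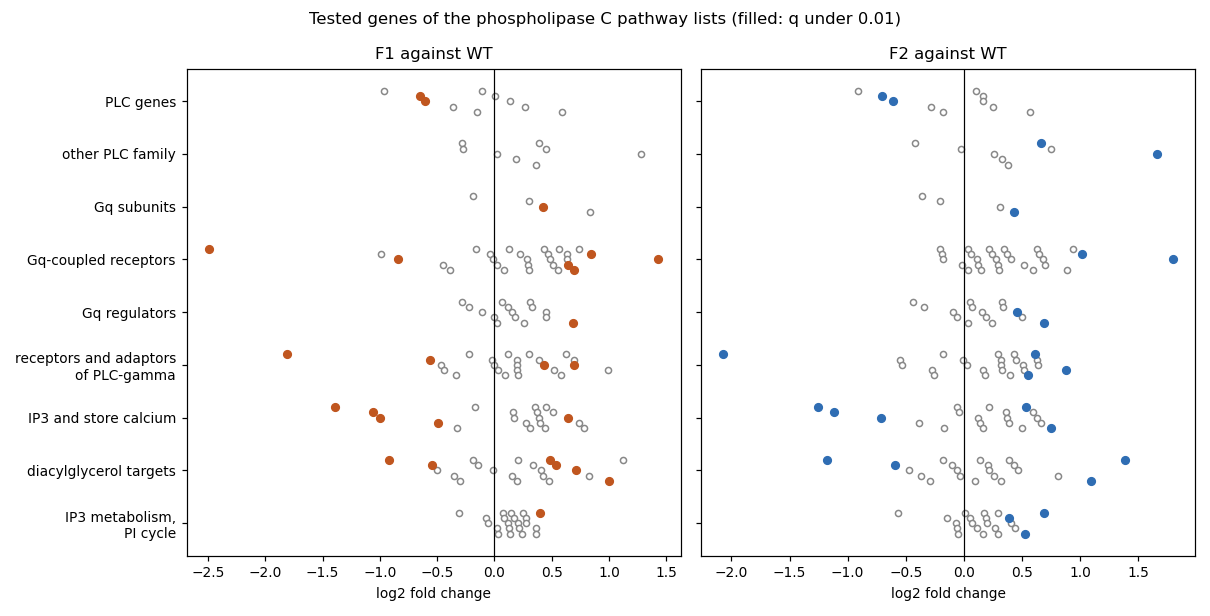
Log2 fold change (horizontal axis) of each tested gene of the phospholipase C family and of 8 lists of pathway genes (rows), in F1 and in F2 against WT; filled points have q under 0.01 by edgeR's exact test, and the vertical spread within a row only separates points. The F1 points run from Ghsr at -2.49 to Htr2a at 1.43.

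Of the 8 other tested phospholipase C family genes, 0 passed in F1 and 2 rose in F2. Of all tested genes, 12.3% were called in F1, and 12% in F2, with 3.86% higher. Plcl1, a relative without catalytic activity that binds IP3, measured 18.4 and 14.8 CPM in WT, 17.4 and 26.3 CPM in F1, and 24.6 and 28.1 CPM in F2 (log2 fold change 0.66 in F2, adjusted p = 0.00819). Plcxd3, which has only the X domain, rose in F2 from 0.265 and 0.458 CPM to 1.05 and 1.23 CPM (log2 fold change 1.66, adjusted p = 0.00373). Its WT levels lay below every library of Plcb2, so Plcxd3 rests on few reads there. Both calls were lost without either WT or either F2 library, with adjusted p up to 0.149 and 0.158. In F1, edgeR's exact test gave 4 of these 8 genes an unadjusted p under 0.05 and the quasi-likelihood test gave 3. The shares of all tested genes were 32.6% and 33.3%. Both tests called 0 of the 8 in F1 at an adjusted p under 0.01.

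Of the 4 Gq-family subunits, which carry receptor signals to the beta isoforms, Gnaq rose in F1 and in F2, and Gna11, Gna14 and Gna15 did not pass. Beside this, 3.77% of all tested genes were called higher in F1 and 3.86% in F2. Gnaq measured 169 and 168 CPM in WT, 201 and 251 CPM in F1, and 238 and 215 CPM in F2. Log2 fold changes were 0.43 in both, with adjusted p of 0.00973 and 0.00929 just under the threshold. The F1 call was lost when any library except F1 replicate 1 was left out, and the F2 call without either WT or either F2 library, with adjusted p up to 0.228 and 0.190.

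Of 28 tested Gq-coupled receptors, 4 rose and 2 fell in F1, while 2 rose and 0 fell in F2, where 12.3% and 12% of all tested genes were called. The median log2 fold change was 0.29 and 0.30. Htr2a, the serotonin 2A receptor, measured 0.735 and 0.739 CPM in WT, 1.65 and 2.33 CPM in F1, and 2.54 and 2.60 CPM in F2. Its WT levels lay below every library of Plcb2, so Htr2a rests on few reads there. It rose by a log2 fold change of 1.43 (SE 0.34, adjusted p = 0.000292) in F1 and 1.80 (SE 0.33, adjusted p = 2.38e-06) in F2, and the F1 call was lost without either WT library or F1 replicate 2, with adjusted p up to 0.0249. Ednrb, an endothelin receptor of astrocytes and other glia, measured 21.7 and 27.0 CPM in WT, 37.4 and 41.3 CPM in F1, and 51.5 and 47.2 CPM in F2. It rose in F1 (0.69) and in F2 (1.02), and its F1 call was lost without WT replicate 1 (adjusted p = 0.0184).

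Ghsr, the ghrelin receptor, and Ntsr2, a neurotensin receptor found mainly in astrocytes, fell in F1 only by the test against WT, and each differed between F2 and F1 by edgeR's exact test. Ghsr measured 3.32 and 2.75 CPM in WT, 0.264 and 0.810 CPM in F1, and 4.37 and 3.08 CPM in F2. Its F1 levels lay below every library of Plcb2, so Ghsr rests on few reads there. Against WT the log2 values were -2.49 in F1 and 0.29 in F2, and F2 exceeded F1 by 2.78 (adjusted p = 6.63e-10). Ntsr2 measured 110 and 115 CPM in WT, 65.6 and 59.9 CPM in F1, and 97.2 and 98.7 CPM in F2. Against WT the log2 values were -0.85 in F1 and -0.20 in F2, and F2 exceeded F1 by 0.64 (adjusted p = 2.54e-05). The difference between the generations was past the threshold whichever library was left out for either gene, but not by the quasi-likelihood test, whose adjusted p was 0.0199 for Ghsr and 0.0242 for Ntsr2.

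Of 15 tested regulators and scaffolds of Gq signalling, 1 rose in F1 and 2 rose in F2, where 3.77% and 3.86% of all tested genes were called higher. Rgs4, which speeds the shutdown of Gq, measured 96.3 and 87.3 CPM in WT, 146 and 150 CPM in F1, and 149 and 147 CPM in F2. It rose by 0.69 on the log2 scale in F1 and in F2 (SE 0.12 each), and both calls held whichever library was left out. Slc9a3r1, a scaffold that binds beta isoforms, rose in F2 only by the test against WT (0.45, adjusted p = 0.00732), and this call was lost without either WT or either F2 library, with adjusted p up to 0.139. Whether the generations differ for it was tested in the comparison of F2 with F1, where it was not called.

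Of 24 tested receptors and adaptors upstream of the gamma isoforms, 2 rose and 2 fell in F1, and 3 rose and 1 fell in F2. Beside these, 12.3% and 12% of all tested genes were called. Lat, the adaptor that recruits Plcg1 in T cells and mast cells, measured 1.65 and 1.34 CPM in WT, 0.561 and 0.291 CPM in F1, and 0.262 and 0.445 CPM in F2. Its F1 and F2 levels lay below every library of Plcb2, so Lat rests on few reads there. Its log2 fold changes were -1.81 and -2.07, and it lost its call without WT replicate 1 in either, without F1 replicate 2 in F1 and without F2 replicate 1 in F2, with adjusted p up to 0.0321 and 0.0472. Ntrk2, the receptor of the neurotrophin BDNF, measured 251 and 265 CPM in WT, 335 and 363 CPM in F1, and 386 and 369 CPM in F2.

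Ntrk2 rose by 0.44 in F1 and 0.55 in F2 on the log2 scale, losing its F1 call without either WT library or F1 replicate 2 (adjusted p up to 0.0599) and its F2 call without WT replicate 1 or F2 replicate 1 (up to 0.0114). Ntrk3, the receptor of neurotrophin NT-3, fell in F1 (log2 fold change -0.56, adjusted p = 0.00173), which was lost without WT replicate 1 or F1 replicate 1 (adjusted p up to 0.0780), and had -0.26 in F2. Pdgfra, a receptor that marks oligodendrocyte precursors, rose by 0.69 in F1 and 0.88 in F2. Its calls were lost without WT replicate 1 in either and without F1 replicate 2 in F1. In each generation 3 of 8 precursor markers, Pdgfra among them, were called higher, beside 3.77% and 3.86% of all tested genes. Erbb4 rose in F2 (0.61), losing the call without WT replicate 1 or F2 replicate 2 (adjusted p up to 0.0221).

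Of 20 genes of IP3-gated and store-operated calcium, 1 rose and 4 fell in F1, and 2 rose and 3 fell in F2, while the list's median was 0.33 and 0.19. Over all tested genes, 3.77% were called higher and 8.54% lower in F1, and 3.86% and 8.1% in F2. The members that fell farthest were the ryanodine receptors Ryr1 and Ryr3, which release calcium from the same store without IP3. In F2 the 3 called lower were Ryr1, Ryr3 and Trpc6, so Ryr2, also on the list, was not called lower there. Ryr1 measured 64.9 and 60.6 CPM in WT, 25.9 and 22.1 CPM in F1, and 29.8 and 28.1 CPM in F2. Ryr3 measured 124 and 106 CPM in WT, 61.0 and 49.5 CPM in F1, and 47.7 and 48.7 CPM in F2. The log2 fold changes were -1.39 and -1.12 for Ryr1 and -1.06 and -1.25 for Ryr3, each with an SE of 0.13, and these 4 calls held whichever library was left out.

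Trpc6, a channel gated by diacylglycerol, measured 102 and 72.1 CPM in WT, 44.1 and 42.9 CPM in F1, and 54.4 and 51.6 CPM in F2, with WT replicate 1 highest as for Plcg1. It fell in F1 (log2 fold change -0.998) and in F2 (-0.71), and its F2 call was lost without WT replicate 1 or F2 replicate 2, with adjusted p up to 0.0330. Itpr1, the IP3 receptor of neurons, measured 118 and 113 CPM in WT, 130 and 182 CPM in F1, and 201 and 186 CPM in F2. It rose in F2 (0.75) whichever library was left out, and its F1 value of 0.44 missed the threshold (adjusted p = 0.0208). Orai3, a pore subunit of store-operated channels, rose in F1 (0.64), which was lost without WT replicate 2 (adjusted p = 0.0277).

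Of 21 tested diacylglycerol targets, 4 rose and 2 fell in F1, and 2 rose and 2 fell in F2, where 12.3% and 12% of all tested genes were called. The 3 Munc13 genes, whose proteins prime synaptic vesicles, went in different directions. Unc13b measured 68.9 and 59.7 CPM in WT, 38.0 and 29.9 CPM in F1, and 28.9 and 27.8 CPM in F2, log2 fold changes of -0.92 and -1.18 that held whichever library was left out. Unc13c measured 3.85 and 5.14 CPM in WT, 8.15 and 9.72 CPM in F1, and 11.5 and 11.9 CPM in F2, and rose by 1.00 and 1.38, the F1 call being lost without WT replicate 1 (adjusted p = 0.0300). Unc13a, at 580 and 476 CPM in WT, 365 and 358 CPM in F1, and 344 and 355 CPM in F2, had -0.55 and -0.60. Its calls were lost without WT replicate 1 in either, without F1 replicate 2 in F1 and without F2 replicate 1 in F2, with adjusted p up to 0.0460 and 0.0244.

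Rasgrp1, an exchange factor for Ras, rose in F1 from 172 and 183 CPM to 269 and 311 CPM whichever library was left out (log2 fold change 0.71), and measured 198 and 226 CPM in F2 (0.26). Prkca, a classical protein kinase C named after its values were seen, measured 136 and 133 CPM in WT, 181 and 196 CPM in F1, and 123 and 135 CPM in F2. Its level was lower in F2 than in F1, with a log2 difference of -0.55 (adjusted p = 0.000721), a call that was lost without F1 replicate 2 or either F2 library (adjusted p up to 0.285). Prkch, another protein kinase C, rose in F2 (1.09, adjusted p = 0.007), and this was lost without either WT or either F2 library (adjusted p up to 0.138).

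Of 21 genes listed for IP3 metabolism and the phosphatidylinositol cycle, 1 rose in F1 and 3 rose in F2, and none fell in either. Among all tested genes, 3.77% were called higher and 8.54% lower in F1, and 3.86% higher and 8.1% lower in F2. Impad1, of the inositol monophosphatase family but known as a Golgi phosphatase of phosphoadenosine phosphate and not of IP3, measured 91.7 and 96.3 CPM in WT, 122 and 125 CPM in F1, and 126 and 119 CPM in F2. Its log2 fold changes were 0.39 (adjusted p = 0.00578) and 0.38 (adjusted p = 0.00780), and the F1 call was lost whichever single library was left out and the F2 call without either WT or either F2 library, with adjusted p up to 0.0895 and 0.146. Itpkb, an IP3 kinase, and Cds2, which makes the lipid precursor of phosphatidylinositol, rose in F2 by 0.69 and 0.53. These calls were lost without F2 replicate 2 (adjusted p = 0.0225) and without F2 replicate 1 (adjusted p = 0.0119).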

How the data were processed

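RNA of the ventral dentate granule cell layer, dissected from cryosections, was made into TruSeq libraries, which do not keep strand, and read as single ends of 50 bases. The authors aligned reads to mm9 with TopHat, given as version 2.0.11 in the methods and 2.0.2 in the submitters' processing notes, and counted them with HTSeq in its intersection-strict mode. The strand setting of the counting and the animals per library are not given in the sources used here. The deposited values are raw counts per gene. Lines that name no gene stayed out of library sizes and tests. They were 9.18% to 14.2% of each table's total for reads in no feature and 0.891% to 1.09% for ambiguous reads. Alignments that were not unique made up 25.1% to 33.2%. The 12 methylation samples were not analysed here.

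Groups were taken from the sample labels. The methods of the study state tagwise dispersions in edgeR and otherwise its defaults. Here edgeR 4.0.16 in R 4.3.3 was used with TMM factors, tagwise dispersions and the exact test, two-sided, to which a filter on low expression (filterByExpr) and dispersions shared by all 3 groups were added by choice, with Benjamini-Hochberg adjustment over all 17421 tested genes. A gene was called at an adjusted p (q) under 0.01, the study's threshold for its results, while its methods give 0.05. Standard errors of log2 fold changes followed from the fitted means and dispersions. The common dispersion gave a biological coefficient of variation of 10.6%, and leaving 1 library of a group assumes that the lone sample varies like the others. Library depth gives precision for abundant genes, and a member at the level of Plcb2 rests on 27 to 77 reads a library.

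The members and lists were chosen with earlier results of these data known. All 10 members are named. From each pathway list, genes called against WT were named, at most 4 per list and comparison, smallest adjusted p first. For each called member, the 3 genes of at least 5 CPM with the highest Pearson r were named. Lengths, overlaps and positions came from an annotation of mm9, and promoters from RefSeq. Alternatives covered quasi-likelihood and likelihood-ratio tests, replicate numbers as a blocking term, the Wald test of DESeq2 1.42.0, other scalings, filters, dispersions, a threshold of 0.05, each library left out, and, added after seeing the data, offsets for GC content and length and a crossed block.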

Additional observations from a re-analysis of the deposited data

Results flagged for a closer look

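By edgeR's exact test of F2 against F1, 3 genes of the pathway lists were called different between the generations, and no phospholipase C gene was called. Ghsr, the ghrelin receptor, was higher in F2 by 2.78 on the log2 scale (adjusted p = 6.63e-10), with both F2 libraries above both F1 libraries. Ntsr2 was higher in F2 by 0.64 (adjusted p = 2.54e-05), again without overlap. Prkca had a log2 difference of -0.55 from F1 to F2 (adjusted p = 0.000721), with both F2 libraries below both F1 libraries. By the quasi-likelihood test their adjusted p was 0.0199, 0.0242 and 0.0484, above 0.01 in each case. Over all tested genes 0.74% were called between the generations.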

How the results depend on the processing

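The exact test called 2 members in F1 and 2 in F2. The quasi-likelihood test called 0 and 1, its replicate block 0 and 0, the likelihood-ratio test with a replicate block 1 and 1, DESeq2 1 and 1, no filter 1 and 1, dispersions of the compared groups alone 1 and 3, and a threshold of 0.05 gave 4 and 4. With GC and length offsets or the crossed block, each by a likelihood-ratio test, 3 passed in F1 and 2 in F2. Leaving out each library gave 0 to 2 in F1 and 0 to 3 in F2. Other scalings and the stricter filter gave 2 and 2. Between F2 and F1 every alternative gave 0. Over the whole table, 2144, 2084 and 129 genes were called in F1, in F2 and between them. The quasi-likelihood test called 1029, 997 and 2, its block 848, 758 and 9, the threshold of 0.05 gave 3623, 3606 and 230, and libraries left out gave 988 to 2043, 703 to 2585 and 52 to 223. The replicate numbers did not pair the samples, with correlations of -0.03, -0.08 and -0.18 between groups, and crossing them called 2679, 2752 and 233 genes. Of 570 member log2 fold changes under alternatives, 518 kept direction and side of the threshold, 28 lost a call, 10 gained one and 14 changed sign. Most of the 570 were not calls in the main fit, so the 518 say little on how stable the calls were. Of 20 settings, the main one included, Plcg1 was past the threshold in 16 in F1 and 17 in F2. Plcg2 was past it in 8 and 11. In F1, Plcb3 turned to -0.016 with library size alone and ranged from -0.040 to 0.075 with a library left out. Between F2 and F1, leaving out libraries gave -0.10 to 0.19 for Plcb2, -0.26 to 0.27 for Plcb4, -0.10 to 0.095 for Plcg2, -0.061 to 0.21 for Plcd1 and -0.17 to 0.13 for Plcd4, and Plcg2 had 0.0094 with upper-quartile factors and 0.00092 with library size alone. None of these 14 was a call in either form, and the cause was not tested. Depth limits Plcb2, at 27 to 77 reads a library. It also limits Ghsr in F1, Plcxd3 and Htr2a in WT, and Lat in F1 and F2, where CPM lay below every library of Plcb2.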
